A study of Mus musculus with 7 samples.

Results

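The genes described here carry glucose into the cell, break it down to pyruvate and decide whether pyruvate becomes lactate or enters the mitochondrion. They were chosen by name as 36 genes of glucose uptake, glycolysis and pyruvate fate, and all 36 were found among the 54532 features of the count table. RNA came from C3H10T1/2, an established mouse line of mesenchymal cells able to turn to bone, fat, cartilage or muscle in culture. The control group was 3 libraries of untreated cells. The OB group was 4 libraries of cells induced for 3 days with dexamethasone (a synthetic glucocorticoid), ascorbic acid at 50 µM and β-glycerophosphate at 10 mM. Both groups grew in serum-supplemented MEM to which sodium pyruvate and L-glutamine had been added. The cells are 1 line, and the induction was compared with no treatment, so the 3 agents cannot be told apart.

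Glucose enters through transporters of the Slc2a family, is trapped by hexokinase, and is split and oxidised to pyruvate by a chain of cytosolic enzymes. Lactate dehydrogenase turns pyruvate into lactate, which leaves through monocarboxylate transporters, while the mitochondrial pyruvate carrier and the pyruvate dehydrogenase complex take pyruvate towards oxidation. Pyruvate dehydrogenase kinases switch that complex off, and a phosphatase switches it back on. Many of these genes are known targets of hypoxia-inducible factors, and Pdk4 is a known target of glucocorticoid receptor in several tissues.

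Ldhb and Pdk4 rose in OB, and no other of the 36 genes passed edgeR's test over all 7 libraries with group as the only term, which is meant below wherever a gene is said not to pass. Levels are given as CPM, the count scaled to a common library size by the TMM method, and genes were called at an adjusted p under 0.05 by edgeR's quasi-likelihood test (Benjamini-Hochberg, 15441 genes tested). Of the 36 genes 35 had enough counts to be tested, of which 2 were higher, 0 lower and 33 did not pass. Among all genes tested 4.32% were higher and 3.72% lower, so the 2 higher genes (5.71% of those tested) are a share near the background. At an unadjusted p under 0.05, 5 of the 35 were higher and 11 lower, against 12.8% and 12.4% of all genes, and DESeq2 called 3 higher and 8 lower. The median log2 fold change of the 35 was -0.27, against 0.00 over all genes tested, with 24 negative values and 11 positive. Without control 3, a library described below, 3 were higher (Ldhb, Pdk4 and Hk2) and 2 lower (Tpi1 and Pdk1), against 3.52% and 3.20% of all genes, and the median was -0.11.

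The number of lower genes depended on the fit more than the number of higher ones. With a block on replicate number 2 were higher and 2 lower, Gpi1 and Gapdh (5.38% and 3.38% of all genes). DESeq2, with a background of 6.90% and 6.03%, called Gpi1, Tpi1, Gapdh, Pgk1, Pkm, Pdk1, Pdhb and Slc16a1 lower and Pdha1 higher beside Ldhb and Pdk4. By limma-voom 4 were higher and 4 lower (15.1% of all genes in either direction), and with no filter on low counts 2 and 5 (2.43% and 2.29%). With the label set as a block 3 were higher and 9 lower (9.28% and 8.13%), the lower ones being Gpi1, Pfkfb1, Tpi1, Gapdh, Pgk1, Pkm, Pdk1, Slc16a1 and Pck2. In the C1 and C2 libraries alone, as the label sets are called below, 3 were higher and 5 lower (6.27% and 3.41%), and in the libraries with no C number 9 and 17 (18.9% and 21.2%), where control 3 is the only control.

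**Figure D1:**
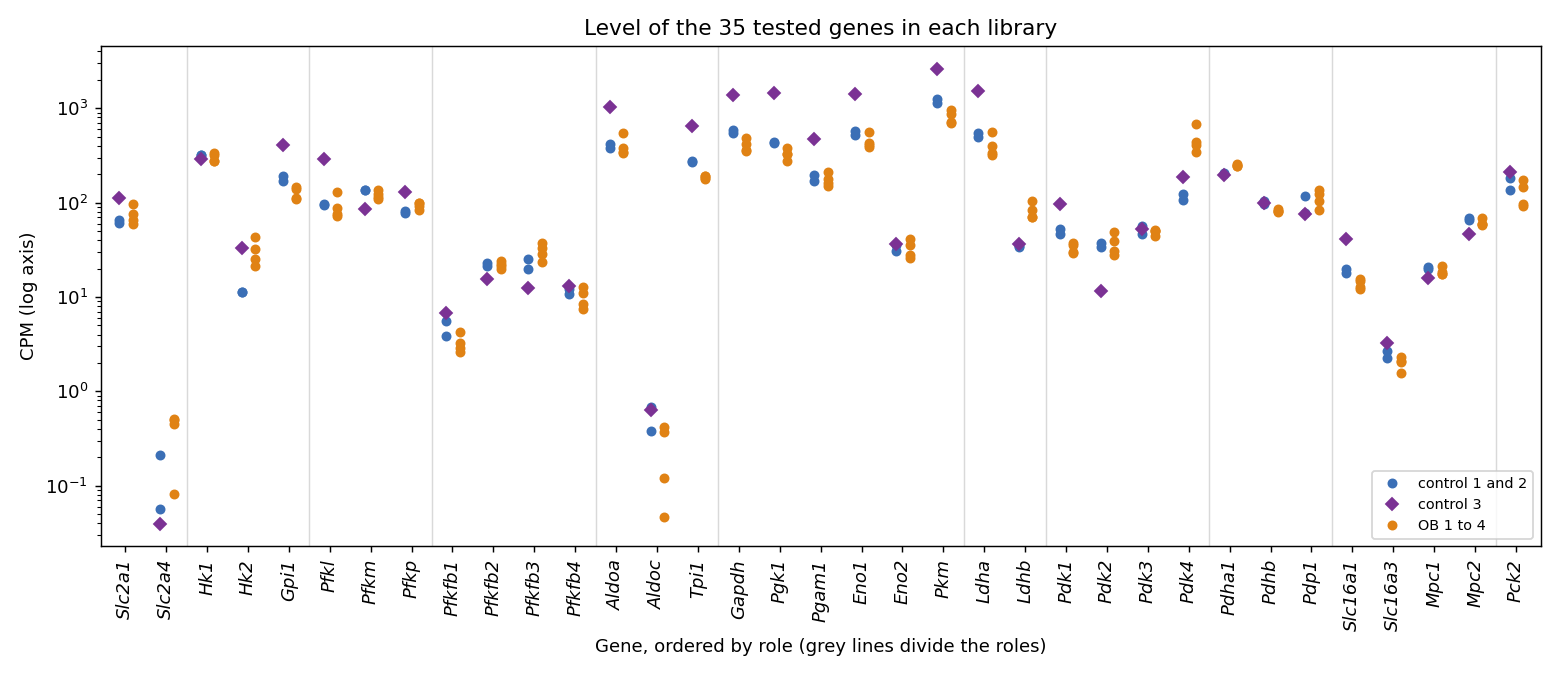
CPM (log axis) of the 35 tested genes in each library, ordered by role, with 1 point per library: blue circles for control 1 and 2, purple diamonds for control 3 and orange circles for the 4 OB libraries. Control 3 sits well above the other libraries from Gpi1 through Ldha for most genes of glycolysis (Pgk1 at 1440 CPM against 277 to 439 CPM elsewhere), while for Ldhb and Pdk4 all 4 OB libraries lie above all 3 control libraries.

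Total counts ran from 21213328 to 46530017 per library. Control 3 lies apart from the other libraries on the first principal component of all genes (-96.9, against -25.3 and -23.0 for the other controls and positive values for OB). In the sample descriptions the first control and first OB library are marked C1 and the second of each C2, while control 3, OB 3 and OB 4 have no such mark. A list of 7 stromal genes summed to 17551 to 25608 CPM per library. Of these Vim, Prrx1 and Col1a2 were at 1281 CPM or more in every library. By edgeR 1 of the 7 was higher in OB and 0 lower, against 4.32% and 3.72% of all genes. Other cell types' lists were low, with sums per library of 1.07 to 3.99 CPM for epithelium, 8.19 to 14.2 CPM for macrophages (Cd14 leading), 2.66 to 10.4 CPM for endothelium (Tek leading) and 1.22 to 4.13 CPM for skeletal muscle. Of their defining genes Epcam and Krt18 (epithelium), Adgre1 (macrophages), Tie1 (endothelium), Myod1 (skeletal muscle) and Lep, Cidec and Retn (fat cells) were at or near 0, while the fat cell genes Fabp4 (5.95 CPM in control, 46.6 CPM in OB) and Pparg (37.7 and 54.7 CPM) were higher in OB. The list of 8 fat cell genes summed to 42.4 to 45.2 CPM in control and 80.7 to 126 CPM in OB, and its part in the results was not tested. In such bulk RNA, fewer cells of a type and less RNA per cell cannot be told apart.

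Control 3 carried far more RNA of the glycolytic enzymes than any other library. The summed level of the 36 genes was 5997 and 6106 CPM in control 1 and 2, 13047 CPM in control 3, and 5340, 5782, 5513 and 5048 CPM in OB 1 to 4. In 12 of the 35 tested genes (34.3%) control 3 stood at 2 or more times the mean of control 1 and 2, from 2.16 times for Slc16a1 to 3.31 times for Pgk1. Over all genes tested that share was 5.82%. Control 3 was the highest of the 7 libraries for 18 of the 35 (51.4%), against 29.0% of all genes. The 12 were Hk2, Gpi1, Pfkl, Aldoa, Tpi1, Gapdh, Pgk1, Pgam1, Eno1, Pkm, Ldha and Slc16a1, genes of steps from glucose phosphorylation to lactate transport. Other genes of the same steps were not among them, such as Hk1, Pfkm and Slc16a3. These stood in control 3 at 0.903, 0.633 and 1.33 times the mean of control 1 and 2. The limit of 2 times was chosen after the values were seen, and this is a description of 1 library.

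Other gene lists were also high in control 3. Of 18 hypoxia response genes outside glycolysis, control 3 was the highest of the 7 libraries for 11, and 7 stood at 2 or more times the mean of control 1 and 2. Ak4, a mitochondrial adenylate kinase gene induced by low oxygen, was at 7.28, 5.78 and 46.7 CPM in control 1, 2 and 3. The hypoxia list summed to 1110, 1163 and 1495 CPM in control 1 to 3 and to 1058 to 1604 CPM in OB. Of 18 cell cycle genes control 3 was the highest library for 14, 7 also stood at 2 or more times the mean of control 1 and 2, and the list summed to 1227, 2981 and 3684 CPM in control 1 to 3 and to 732 to 863 CPM in OB. Control 2 was thus high for cell cycle genes, while its sum over the 36 genes was near that of control 1. The pentose phosphate list summed to 787, 791 and 1067 CPM in control 1 to 3, with control 3 the highest library for 5 of its 8 genes, and the list of redox shuttles to 862, 915 and 964 CPM, with 6 of 11. For 19 regulators of glucose use control 3 was the highest library in 3. The part of hypoxia response, proliferation or the label set in the level of control 3 was not tested.

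**Figure D2:**
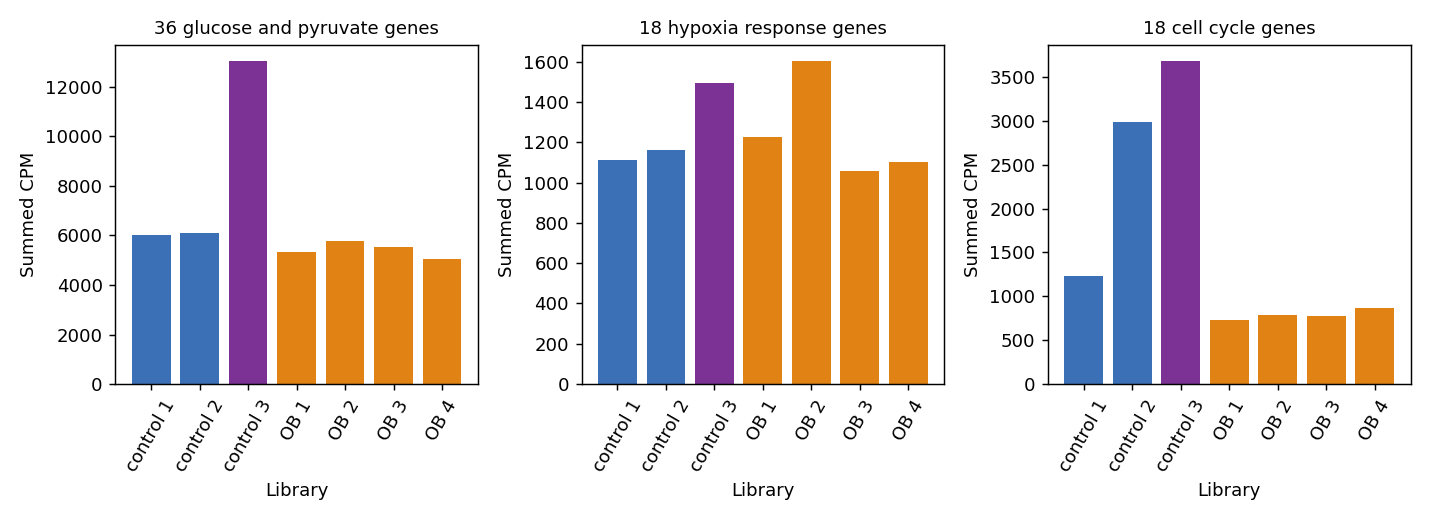
Summed CPM in each library of the 36 genes described here, 18 hypoxia response genes and 18 cell cycle genes, with bars from 0 in blue for control 1 and 2, purple for control 3 and orange for OB. The first panel has 1 tall bar, control 3 at 13047 CPM against 5048 to 6106 CPM, while the cell cycle panel has high bars for both control 2 and control 3.

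No glucose uptake gene passed the test. Slc2a1 encodes GLUT1, the transporter of basal uptake. It stood at 60.8, 65.9 and 113 CPM in control 1 to 3 and at 75.5, 95.5, 59.7 and 66.0 CPM in OB 1 to 4. The groups overlapped, with the highest value in control 3, and the log2 fold change was -0.10 ± 0.25 (SE; edgeR's adjusted p = 0.831), or 0.22 ± 0.19 without control 3. Slc2a4 encodes GLUT4, the insulin-responsive transporter of muscle and fat. It was near the detection limit, with 13 counts over the controls and 45 over OB (log2 fold change 1.74 ± 0.72, edgeR's adjusted p = 0.183). Slc2a3, which encodes the high-affinity transporter GLUT3, had 2 counts over the controls and 7 over OB and was not tested. Slc2a1 held 99.1 to 99.9% of the level per kilobase of these 3 genes in every library.

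The hexokinase genes, whose products trap glucose as glucose phosphate, differed from each other. Hk1, the constitutive form, stood at 323, 321 and 291 CPM in control 1 to 3 and at 318, 274, 336 and 276 CPM in OB 1 to 4, with a log2 fold change of -0.05 ± 0.12 (edgeR's adjusted p = 0.83). Hk2, the inducible form, stood at 11.3, 11.4 and 32.7 CPM in the controls and at 42.8, 25.3, 32.3 and 21.2 CPM in OB. All OB values of Hk2 lay above control 1 and 2, while control 3 fell inside the OB range. Its log2 fold change was 0.72 ± 0.42 (edgeR's adjusted p = 0.33) over all libraries and 1.41 ± 0.28 without control 3, where it passed (edgeR's adjusted p = 0.0331). Among the C1 and C2 libraries it passed as well (edgeR's adjusted p = 0.0275). Its log2 fold change was -0.31 among the libraries with no C number, where control 3 is the only control. Gpi1, the isomerase that follows, stood at 190, 168 and 404 CPM in the controls and at 109, 112, 146 and 141 CPM in OB. Every OB library lay below every control, and Gpi1 did not pass (log2 fold change -1.0 ± 0.30, edgeR's adjusted p = 0.081). It passed with the replicate block (0.0402), the label set block (0.0136), no filter (0.0366) and DESeq2 (0.0168), and within the C1 and C2 libraries (0.0183). Among the libraries with no C number, where control 3 is the only control, its log2 fold change was -1.51.

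At the phosphofructokinase step, the committed reaction of glycolysis, Pfkm was the most abundant of the subunit genes per kilobase. Pfkm stood at 137, 136 and 86.4 CPM in control 1 to 3 and at 108, 137, 116 and 122 CPM in OB 1 to 4, with overlapping groups (log2 fold change 0.01 ± 0.18, edgeR's adjusted p = 0.98). Pfkl, the liver-type subunit gene, stood at 94.9, 97.4 and 293 CPM in the controls and at 72.7 to 128 CPM in OB. Its log2 fold change of -0.83 ± 0.41 (edgeR's adjusted p = 0.254) became -0.09 ± 0.23 without control 3. Pfkp, the platelet-type subunit gene, had a control mean of 96.5 ± 29.2 CPM (SD, n = 3) and an OB mean of 93.2 ± 7.28 CPM (SD, n = 4) (log2 fold change -0.05 ± 0.19, edgeR's adjusted p = 0.896).

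The Pfkfb genes encode enzymes that make and break down the sugar bisphosphate that activates phosphofructokinase. None of the 4 passed, and the label set block called Pfkfb1 lower (edgeR's adjusted p = 0.0386). Pfkfb3, the form with the strongest kinase activity, stood at 25.0, 19.6 and 12.4 CPM in control 1 to 3 and at 23.6, 28.8, 33.3 and 37.4 CPM in OB 1 to 4. Only OB 1 fell inside the control range, and the log2 fold change was 0.69 ± 0.25 (edgeR's adjusted p = 0.137). Pfkfb1 stood at 5.41 ± 1.45 CPM in control and 3.26 ± 0.692 CPM in OB (log2 fold change -0.73 ± 0.27, edgeR's adjusted p = 0.135). Pfkfb2 and Pfkfb4 had log2 fold changes of 0.13 and -0.27 (edgeR's adjusted p = 0.658 and 0.467). As a share of the level per kilobase of the 4 genes, Pfkfb3 made up 27.3 ± 7.0% (SD, n = 3) in control and 40.8 ± 3.85% (SD, n = 4) in OB, and all OB libraries lay above all controls.

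From aldolase to pyruvate kinase, the enzymes of the middle and lower pathway were lower in OB on average, and none passed with group as the only term. The label set block, which also uses all 7 libraries, called Tpi1 (edgeR's adjusted p = 0.0371), Gapdh (0.0190), Pgk1 (0.0488) and Pkm (0.0308) lower, as did DESeq2 (0.00784, 0.0176, 0.0240 and 0.00968). With the replicate block only Gapdh of these 4 passed (0.0463). Pkm encodes pyruvate kinase, the last step, and over all 7 libraries had the highest mean level per kilobase of exon of the 36 genes. That mean was 235 CPM per kilobase, against 230 for Pgk1, which was the higher of the 2 in the controls alone (343 against 334). Pkm stood at 1126, 1255 and 2625 CPM in control 1 to 3 and at 705, 862, 953 and 718 CPM in OB 1 to 4. All OB values lay below all controls, with a log2 fold change of -1.04 ± 0.29 (edgeR's adjusted p = 0.0666), or -0.56 ± 0.15 without control 3 (0.0691). The table counts whole genes, so the muscle-type and growth-type Pkm transcripts cannot be told apart. Tpi1, triose phosphate isomerase, stood at 276, 267 and 646 CPM in the controls and at 181, 192, 193 and 180 CPM in OB. Its log2 fold change was -1.09 ± 0.30 (edgeR's adjusted p = 0.0627), and without control 3 it was smaller but more even, at -0.55 ± 0.09, and passed (0.0178). Tpi1 also passed among the C1 and C2 libraries (edgeR's adjusted p = 0.0253).

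Gapdh, the dehydrogenase often used as a reference gene, stood at 595, 542 and 1378 CPM in control 1 to 3 and at 359, 353, 489 and 420 CPM in OB 1 to 4. Pgk1, the first step that makes ATP, stood at 439, 430 and 1440 CPM in the controls and at 277, 326, 380 and 324 CPM in OB. For both genes the groups did not overlap with or without control 3. Their log2 fold changes were -1.05 ± 0.32 and -1.24 ± 0.41 (edgeR's adjusted p = 0.0872 and 0.11), and -0.50 ± 0.15 and -0.42 ± 0.13 without control 3 (0.0973 and 0.106). Among the C1 and C2 libraries, which also leave out control 3, both passed, at -0.67 and -0.53 (edgeR's adjusted p = 0.0201 and 0.0476). Aldoa, the main aldolase gene, stood at 422, 383 and 1028 CPM in the controls and at 376, 551, 346 and 336 CPM in OB. Its groups overlapped, and the log2 fold change of -0.60 ± 0.36 (edgeR's adjusted p = 0.333) was -0.01 ± 0.21 without control 3. Pgam1 and Eno1, which rearrange phosphoglycerate and make phosphoenolpyruvate, also overlapped between groups. Their log2 fold changes were -0.68 ± 0.34 and -0.91 ± 0.35 (edgeR's adjusted p = 0.259 and 0.148). Without control 3 that of Pgam1 was -0.07 ± 0.15, near that of Aldoa, while that of Eno1 was -0.30 ± 0.16. The brain-type genes Eno2 and Aldoc had log2 fold changes of -0.08 ± 0.18 and -1.32 ± 0.64 (edgeR's adjusted p = 0.818 and 0.242), Aldoc at under 1 CPM in every library.

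**Figure D3:**
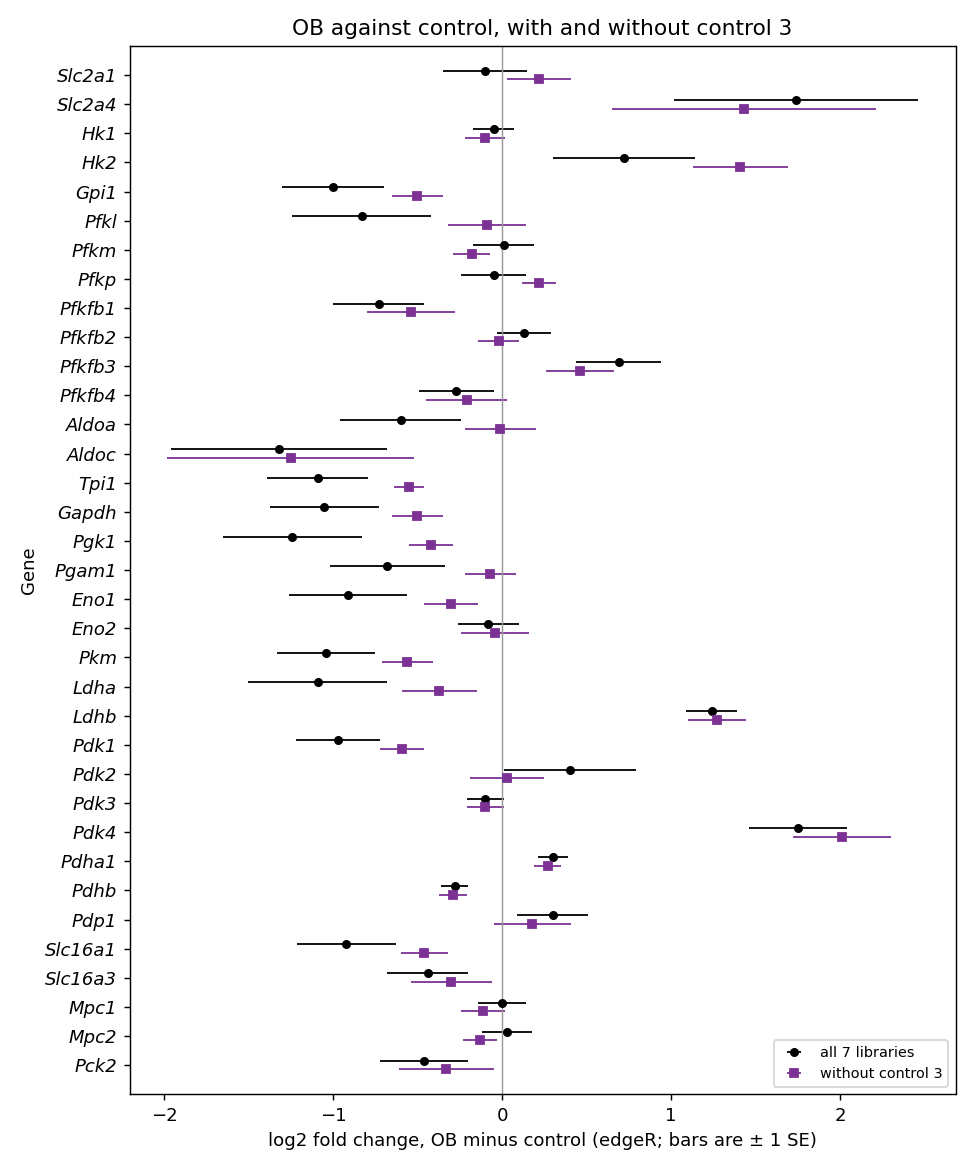
Log2 fold change of OB against control for the 35 tested genes (edgeR, x axis; bars are 1 SE each way), with black circles for all 7 libraries and purple squares without control 3. Gpi1, Pfkl, Aldoa, Tpi1, Gapdh, Pgk1, Pgam1, Eno1, Pkm and Ldha lie nearer to 0 when control 3 is left out (Aldoa at -0.01 in place of -0.60), while Ldhb and Pdk4 stay at 1.27 and 2.01.

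Lactate dehydrogenase, which interconverts pyruvate and lactate, had a different mix of subunit genes in OB. Ldhb encodes the heart-type subunit, known to favour the oxidation of lactate to pyruvate. It stood at 34.4, 33.7 and 36.5 CPM in control 1 to 3 and at 70.8, 103, 71.2 and 84.3 CPM in OB 1 to 4. The controls were close together, control 3 included, and every OB library lay above them. Ldhb rose 2.36-fold (log2 fold change 1.24 ± 0.15, edgeR's adjusted p = 0.00654), and the call held without each library in turn (adjusted p up to 0.0352). Ldha, the muscle-type subunit gene, stood at 492, 540 and 1532 CPM in the controls and at 394, 556, 321 and 336 CPM in OB. It overlapped between groups and did not pass (log2 fold change -1.09 ± 0.41, edgeR's adjusted p = 0.143), with -0.37 ± 0.22 without control 3. Per kilobase of exon, Ldhb made up 12.8, 11.6 and 4.78% of the pair in control 1 to 3 and 27.4, 28.1, 31.8 and 34.6% in OB 1 to 4. The mean share was 9.75 ± 4.34% in control and 30.5 ± 3.37% in OB, so Ldha remained the larger part in every library. With 3 libraries against 4 an exact permutation test cannot go below a two-sided p of 0.0571, and the shares were not tested.

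Among the kinases that switch off pyruvate dehydrogenase, Pdk4 rose and no other passed. Pdk4, the form known to respond to fasting and glucocorticoids, stood at 124, 106 and 185 CPM in control 1 to 3 and at 674, 340, 439 and 409 CPM in OB 1 to 4. Every OB library lay above every control, with OB 1 the highest. Pdk4 rose 3.36-fold (log2 fold change 1.75 ± 0.29, edgeR's adjusted p = 0.0149), and the call held without each library except control 2, without which it did not pass (0.0580). Pdk1, the form induced by hypoxia, stood at 52.7, 46.2 and 95.9 CPM in the controls and at 29.6, 37.3, 29.4 and 35.7 CPM in OB. Its groups did not overlap, and it missed the threshold (log2 fold change -0.97 ± 0.25, edgeR's adjusted p = 0.0516), while without control 3 it passed with a smaller change (-0.59 ± 0.13, adjusted p = 0.0471). Pdk1 also passed with the label set block (0.0338), no filter (0.0206), DESeq2 (0.00637) and limma-voom (0.0329), and not with the replicate block (0.0949). Pdk2 stood at 34.1, 37.6 and 11.5 CPM in control 1 to 3 and 27.9 to 49.2 CPM in OB, so control 3 was the lowest library here. Pdk3 was at 52.0 ± 4.92 CPM in control and 48.6 ± 3.29 CPM in OB. The log2 fold changes of Pdk2 and Pdk3 were 0.40 ± 0.39 and -0.10 ± 0.11 (edgeR's adjusted p = 0.561 and 0.612). Of the level per kilobase of the 4 kinase genes, Pdk4 held 49.7, 42.9 and 59.1% in control 1 to 3 and 85.3, 70.9, 79.6 and 77.3% in OB 1 to 4. Pdk1 held 10.6 ± 2.82% in control and 2.66 ± 0.789% in OB.

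**Figure D4:**
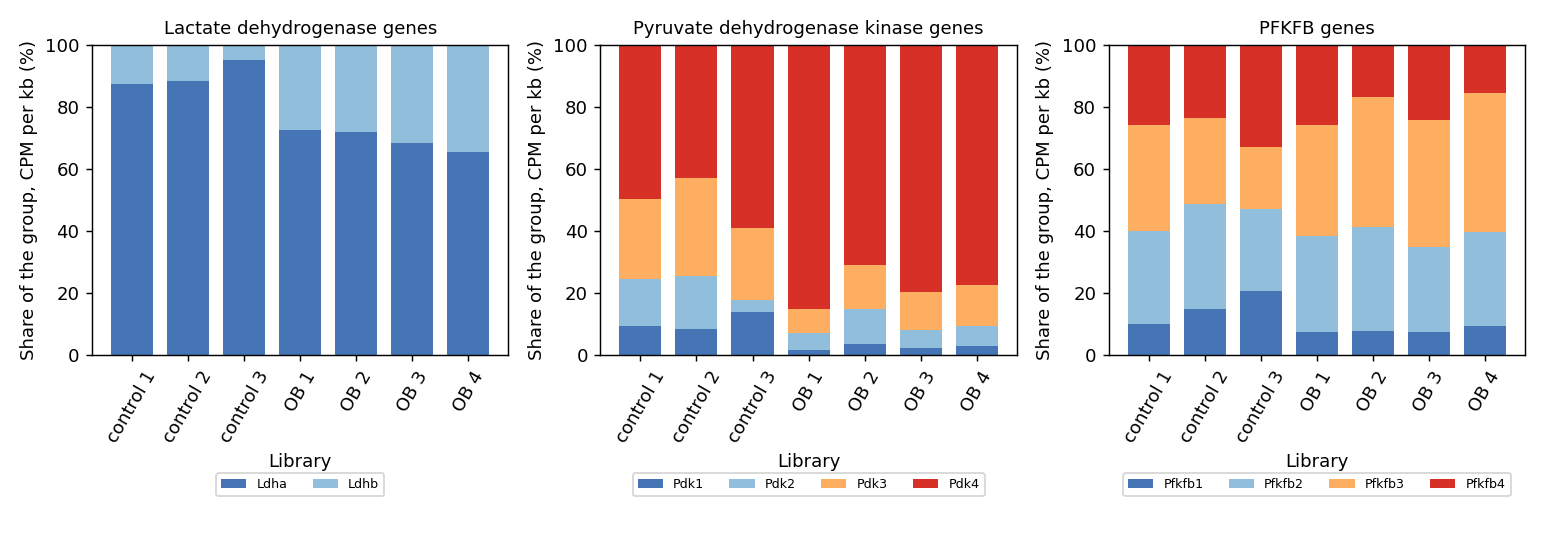
Share of each paralogue in the lactate dehydrogenase, pyruvate dehydrogenase kinase and PFKFB genes in each library, as stacked bars in percent of the summed CPM per kilobase of exon. Ldhb rises from 4.78 to 12.8% in control to 27.4 to 34.6% in OB, Pdk4 from 42.9 to 59.1% to 70.9 to 85.3%, and Pfkfb3 from 20.1 to 34.1% to 35.6 to 44.8%.

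The genes of the enzyme that these kinases act on did not pass. Pdha1, the catalytic subunit gene of pyruvate dehydrogenase that the kinases phosphorylate, stood at 203, 206 and 196 CPM in control 1 to 3 and at 245, 254, 243 and 250 CPM in OB 1 to 4. Its partner Pdhb stood at 96.7, 103 and 98.5 CPM in the controls and at 79.1, 82.1, 84.8 and 81.8 CPM in OB. Both were tight within groups and did not overlap between them, Pdha1 above and Pdhb below control in OB. Their log2 fold changes were 0.30 ± 0.09 and -0.28 ± 0.08, and neither passed (edgeR's adjusted p = 0.0788 and 0.0813), although both did by DESeq2 (0.0139 and 0.0311) and by limma-voom (0.0325 for each), and Pdha1 with the label set block (0.0457). Pdp1, the phosphatase gene that reactivates the complex, had a log2 fold change of 0.30 ± 0.21 (edgeR's adjusted p = 0.421).

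Among carriers, Slc16a1 encodes the lactate and pyruvate transporter MCT1. It stood at 19.9, 18.1 and 41.2 CPM in control 1 to 3 and at 12.9, 12.2, 14.9 and 15.6 CPM in OB 1 to 4. Every OB library lay below every control, and it did not pass (log2 fold change -0.92 ± 0.29, edgeR's adjusted p = 0.0905; -0.46 ± 0.14 without control 3). It passed with the label set block (0.0233) and by DESeq2 (0.0245). Slc16a3, which encodes the exporter MCT4, was low, at 2.75 ± 0.511 CPM in control and 2.02 ± 0.317 CPM in OB (log2 fold change -0.44 ± 0.24, edgeR's adjusted p = 0.291). Neither mitochondrial pyruvate carrier gene passed. Mpc1 stood at 20.6, 19.6 and 16.0 CPM in the controls and at 17.6, 21.5, 18.3 and 17.6 CPM in OB, with overlapping groups and equal means of 18.8 CPM (SE of the log2 fold change 0.14, edgeR's adjusted p = 0.999). Mpc2 had a log2 fold change of 0.03 ± 0.15 (edgeR's adjusted p = 0.918). Pck2, the mitochondrial enzyme gene that can turn oxaloacetate into phosphoenolpyruvate, stood at 135, 183 and 209 CPM in control 1 to 3 and at 96.7, 92.2, 175 and 146 CPM in OB 1 to 4. Its groups overlapped (log2 fold change -0.46 ± 0.26, edgeR's adjusted p = 0.302), and it passed with the label set block (0.0366) and among the C1 and C2 libraries (0.0472).

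In all, 8 of the 35 tested genes (22.9%) had every OB library below every control, namely Gpi1, Tpi1, Gapdh, Pgk1, Pkm, Pdk1, Pdhb and Slc16a1, against 12.3% of all genes tested. Ldhb, Pdk4 and Pdha1 (8.57%) had every OB library above every control, against 13.2% of all genes.

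The sequences before the start sites are shown for Ldhb and Pdk4, the genes that rose, and for Pdk1, Ldha and Pgk1, picked after their values were seen because control 3 was high for them. Pdk1 and Ldha have 2 listed start sites each, and of these the one nearest the annotated gene start was used. For Pdk1 it is the gene start itself, while for Ldha it lies 4.3 kb inside the annotated gene. Each is the 250 bases upstream of a RefSeq start site, 5′ to 3′ on the gene's strand (GRCm38.p6). Capitals mark ACGTG, 1 form of the core of the hypoxia response element, read on both strands. An overlapping pair of matches was counted as 1 place, and other forms of the core were not searched for.
Ldhb: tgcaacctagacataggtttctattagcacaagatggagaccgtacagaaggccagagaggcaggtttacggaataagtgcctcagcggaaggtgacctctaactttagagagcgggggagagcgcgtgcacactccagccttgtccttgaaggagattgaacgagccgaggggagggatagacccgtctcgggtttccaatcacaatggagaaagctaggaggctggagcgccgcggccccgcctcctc
Pdk4: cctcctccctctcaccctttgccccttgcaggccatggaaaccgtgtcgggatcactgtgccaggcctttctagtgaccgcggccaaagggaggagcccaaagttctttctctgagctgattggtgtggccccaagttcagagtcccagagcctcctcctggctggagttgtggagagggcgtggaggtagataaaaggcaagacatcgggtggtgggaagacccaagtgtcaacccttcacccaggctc
Pdk1: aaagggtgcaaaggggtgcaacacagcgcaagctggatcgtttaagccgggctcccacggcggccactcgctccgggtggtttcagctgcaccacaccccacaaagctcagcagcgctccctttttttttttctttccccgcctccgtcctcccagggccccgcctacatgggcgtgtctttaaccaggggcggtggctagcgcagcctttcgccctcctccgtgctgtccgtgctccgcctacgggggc
Ldha: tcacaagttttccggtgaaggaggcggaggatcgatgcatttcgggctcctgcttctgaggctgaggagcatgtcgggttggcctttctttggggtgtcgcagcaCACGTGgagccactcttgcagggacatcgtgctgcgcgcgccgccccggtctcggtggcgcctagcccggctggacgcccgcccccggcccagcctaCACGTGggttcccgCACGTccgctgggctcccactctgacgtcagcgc
Pgk1: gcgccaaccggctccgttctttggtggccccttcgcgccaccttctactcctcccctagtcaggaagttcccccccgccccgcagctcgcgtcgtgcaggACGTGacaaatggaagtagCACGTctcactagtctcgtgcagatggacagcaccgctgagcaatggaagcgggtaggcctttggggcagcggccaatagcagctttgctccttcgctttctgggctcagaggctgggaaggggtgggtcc
The windows lie at chr6:142507958-142508207 (minus strand) for Ldhb, chr6:5496279-5496528 (minus strand) for Pdk4, chr2:71872974-71873223 (plus strand) for Pdk1, chr7:46845554-46845803 (plus strand) for Ldha and chrX:106186850-106187099 (plus strand) for Pgk1. Ldha has 3 places, of which 2 are the palindrome CACGTG that is also an E-box, and Pgk1 has 2. The other listed window of Ldha, 5.6 kb inside the gene, holds none. The windows of Ldhb, Pdk4 and Pdk1 hold none, which says only that these letters are not in them. A palindromic consensus of the glucocorticoid response element, searched on both strands, was in none of the 33 genes with an entry, against 0.44% of 27025 genes in the table. At so low a share 33 genes are too few for its absence to be informative. Sites outside the 250 bases, or that depart from the consensus, were not searched for.

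Of the 33 genes with an entry 15 (45.5%) held ACGTG in at least 1 listed window of 250 bases, against 18.5% of all 27025 genes. The 12 genes that were high in control 3 held it in 7 cases (58.3%) and the other 21 in 8 (38.1%). Their windows were also richer in G and C, with a median of 62.3% in the 12 and 58.8% in the other 21, against 52.4% over all genes. These shares are a description, and base composition moves with them. A gene with more listed windows also had more chances to hold ACGTG, and the number of windows per gene was not matched.

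Beyond the named set, 114 other genes of glucose use were examined in 8 lists, of which 94 were tested. In total 7 were higher and 2 lower, against 4.32% and 3.72% of all genes tested, with a median log2 fold change of 0.04. These shares are the background of each list's edgeR counts below. At an unadjusted p under 0.05 the background was 12.8% and 12.4%. By DESeq2 it was 6.90% and 6.03%, by limma-voom 15.1% in either direction, and with the replicate block 5.38% and 3.38%. Galm, the mutarotase that feeds free galactose and glucose into use, rose from a mean of 18.2 ± 2.30 CPM (SD over 3 controls) to 60.3 ± 24.2 CPM (SD over 4 OB libraries), while Galk1, galactokinase, fell from 90.6 ± 6.87 to 60.7 ± 6.54 CPM. Their log2 fold changes were 1.73 ± 0.32 and -0.58 ± 0.11 (edgeR's adjusted p = 0.0200 and 0.0247), the only calls among 18 tested transporters and isoenzymes. Of 4 tested genes of monocarboxylate transport, Emb, a chaperone gene of these transporters, rose from 35.9 ± 17.3 to 123 ± 41.9 CPM (log2 fold change 1.77 ± 0.37, edgeR's adjusted p = 0.0285). Slc16a6, of the same transporter family, fell from 6.52 ± 1.98 to 2.61 ± 0.486 CPM (log2 fold change -1.31 ± 0.26, edgeR's adjusted p = 0.0261). Bsg (basigin), the usual chaperone of MCT1, had a log2 fold change of -0.04 ± 0.13 (edgeR's adjusted p = 0.885).

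In the pentose phosphate list 1 of 8 tested genes passed, H6pd, the dehydrogenase of the endoplasmic reticulum, which rose from 67.0 ± 4.90 to 137 ± 36.6 CPM (log2 fold change 1.03 ± 0.21, edgeR's adjusted p = 0.0267). The cytosolic genes G6pdx and Taldo1 had log2 fold changes of 0.41 and 0.13 (edgeR's adjusted p = 0.151 and 0.72). In the hexosamine and polyol list 1 of 8 passed, Gfpt2, an entry enzyme of hexosamine synthesis, which rose from 1.74 ± 0.345 to 4.89 ± 1.26 CPM (log2 fold change 1.49 ± 0.28, edgeR's adjusted p = 0.0225). There Sord and Uap1 had log2 fold changes of 0.21 and -0.03 (edgeR's adjusted p = 0.487 and 0.944). By edgeR 0 of 12 tested genes of the pyruvate dehydrogenase complex and pyruvate carboxylation passed (3 higher and 2 lower at an unadjusted p under 0.05; 2 higher by DESeq2, 0 by limma-voom), with Dld and Me1 at -0.18 and -0.45 (adjusted p = 0.346 and 0.104). Pcx, pyruvate carboxylase, which makes oxaloacetate from pyruvate, is named after its values were seen. It stood at 58.3 ± 24.6 CPM in control and 130 ± 33.8 CPM in OB, with every OB library above every control, and did not pass (log2 fold change 1.16 ± 0.31, edgeR's adjusted p = 0.0612). It passed with the replicate block (0.0107), the label set block (0.00312), no filter (0.0298) and DESeq2 (0.00536), and not by limma-voom (0.0635) or without control 3 (0.101). Likewise 0 of 11 redox shuttle genes passed (1 higher and 3 lower at an unadjusted p under 0.05; 1 higher by DESeq2, 1 higher and 2 lower by limma-voom), with Mdh2 and Slc25a11 at -0.35 and -0.31 (adjusted p = 0.0926 and 0.183). Of 14 glycogen genes 0 passed (4 higher and 1 lower at an unadjusted p under 0.05; 3 higher by DESeq2, 2 by limma-voom and 2 with the replicate block), with Ugp2 and Pygb at 0.20 and 0.83 (adjusted p = 0.309 and 0.0878).

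Among 19 tested regulators of glucose use 3 were higher and 0 lower (4.32% and 3.72% of all genes), with a median log2 fold change of 0.29. At an unadjusted p under 0.05, 8 were higher and 0 lower (12.8% and 12.4% of all genes). The replicate block called 7 higher (5.38% of all genes). Mlxip, which encodes the glucose-sensing factor MondoA, rose from 63.9 ± 7.80 to 106 ± 8.74 CPM (log2 fold change 0.73 ± 0.12, edgeR's adjusted p = 0.0150). Tbc1d4, which holds GLUT4 vesicles back until insulin acts, rose from 34.4 ± 3.20 to 76.1 ± 18.1 CPM (log2 fold change 1.15 ± 0.19, edgeR's adjusted p = 0.0150). Hif3a, the gene of an alpha subunit known to restrain the other hypoxia-inducible factors, had 1 count over the controls and 4115 over OB, a ratio of pooled CPM of 3911 with a 95% exact binomial interval of 702 to 154522 that covers counting error only. In the hypoxia list 1 of 18 genes was higher and 2 were lower (4.32% and 3.72% of all genes). Under the replicate block 3 were higher and 1 lower (5.38% and 3.38% of all genes). Adm (adrenomedullin) rose from 10.1 ± 2.35 to 39.3 ± 8.24 CPM, and P4ha1, a collagen prolyl hydroxylase gene, fell from 202 ± 85.6 to 82.3 ± 18.3 CPM, with log2 fold changes of 1.97 ± 0.23 and -1.30 ± 0.28 (edgeR's adjusted p = 0.00559 and 0.0320). Ak4 was the other lower gene (-3.43 ± 0.76, edgeR's adjusted p = 0.0337), and with the replicate block it did not pass (0.0888), nor did Galk1 (0.0650). Of these calls outside the 36 genes, Hif3a and Adm held without each library in turn (adjusted p up to 0.0283 and 0.0297), while each of the others lost its call without at least 1 library.

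Several of the genes have near-identical copies, and multi-mapping fragments were left out of the counts. Of their 50-base words 53.9% recur in other annotated genes for Pgk1, 36.2% for Pgam1, 26.0% for Eno1, 25.8% for Pkm, 25.1% for Gapdh and 21% for Ldhb, so the levels of these genes are uncertain. Pdk4, Pdk1 and Ldha had 1.4%, 0.0% and 9.3%. The overlapping gene Map3k15 covers 16.1% of the Pdha1 exon bases on the opposite strand and 4930506C21Rik covers 23.1% of those of Mpc1, and fragments that overlap several genes were not counted. On mm10, Ldhb (ENSMUSG00000030246) lies at chr6:142490249-142507957 and Pdk4 (ENSMUSG00000019577) at chr6:5483351-5496309, both on the minus strand, with counts taken over exons.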

How the data were processed

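RNA from 3 control and 4 OB cultures was sequenced from TruSeq v2 libraries, a kit that does not mark strand. Per the file headers, the deposited values are whole-number counts of fragments, made by featureCounts 1.6.4 over Ensembl 94 exons, with no strand, multi-mapping or overlap option, not normalised. The submitters' processing notes name Trimmomatic, HISAT2 and mm10. The deposited exon length in bases (other unit), per the file headers, gave levels per kilobase. Columns are numbered, and were matched to samples by the order of inputs in the recorded counting command, which equals the sample descriptions. This could not be checked independently. Symbols came from a gene name table, and of the 2 IDs named Aldoa the one over the RefSeq gene was used.

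Testing used edgeR 4.0.16 under R 4.3.3 (filterByExpr, TMM factors 0.981 to 1.024, group as the only term), with DESeq2 1.42.0 and limma 3.58.1 as alternatives. The pipeline was tested on simulated data. SE is the log2 fold change over the square root of F. Libraries of 1 group differed far beyond sampling noise (chi-square per degree of freedom 15.01 to 165.78). The lowest value was that of OB 3 with OB 4, the next that of OB 1 with OB 2 (35.26), and the highest that of control 1 with control 3. Replicates are biological per the series' design text, but separate cultures are not described, so a p-value reflects the spread among these 7 libraries. A count of 3 equals 0.0645 to 0.1414 CPM. Same-numbered control and OB libraries had deviations from the group means that correlated at 0.17, 0.52 and 0.40 across genes. Differently numbered pairs ran from -0.47 (control 2 with OB 3) to 0.27 (control 3 with OB 4), with control 2 and OB 1 at 0.21. The block on replicate number was run as an alternative, and the main fit did not use it. OB 4 has no same-numbered control.

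The genes and lists were chosen with earlier results of these data known. All members are accounted for. Called members and the most abundant of each role are given per library, and of each other list up to 4 called genes, with the 2 of highest level per kilobase where fewer than 2 passed. The dexamethasone dose is left out because its notation is ambiguous. Protein sequences were not used here.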

Additional observations from a re-analysis of the deposited data

Results flagged for a closer look

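Among the 4 OB libraries 2 values lay far from the other 3, with a gap to the nearest of 0.872 and 0.871 of the group's range, past Dixon's critical value. Slc2a4 was at 0.0813 CPM in OB 1, against 0.455 to 0.510 CPM in OB 2 to 4, which rests on 2 counts in OB 1. Mpc2 was at 69.4 CPM in OB 2, against 57.8 to 59.3 CPM in the others. In all 41 sets of values were examined, and chance marks about 1 in 20. The 3 control libraries were not examined in this way, so whether control 3 lies past such a limit was not tested.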

How the results depend on the processing

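Of 556 values of the tested members under the alternatives, 453 kept their direction and their side of the threshold, 1 lost its call, 68 gained one and 34 changed sign, all 34 in genes that did not pass. Members called higher were 2, with 4 by limma-voom and 9 in the libraries with no C number, where the lone control is taken to vary as much as the OB libraries. Members called lower were 0, with 1 under upper-quartile scaling, 5 with no filter, 8 by DESeq2, 4 by limma-voom, 2 under the replicate block, 9 under the label set block, 5 in the C1 and C2 libraries and 17 in those with no C number. Without each library in turn they were 1 to 3 higher and 0 to 2 lower. The 2 lower members without control 3 were Tpi1 and Pdk1, and without control 1 they were Tpi1 and Pkm. Leaving out control 2 ended the call of Pdk4. The replicate block changed no call of a member other than those of Gpi1 and Gapdh.

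All genes called higher (667) and lower (574) were 1292 and 1129 by DESeq2, 1247 and 1081 by limma-voom, 1433 and 1256 under the label set block, and 3052 and 3413 in the libraries with no C number. In the C1 and C2 libraries 1030 were higher. Without each library they were 190 to 575 higher and 104 to 703 lower. Other genes of glucose use called higher (7) were 17 by DESeq2, 14 by limma-voom, 14 under the replicate block, 17 under the label set block, 18 in the C1 and C2 libraries and 23 in those with no C number, and 1 to 7 without each library. Those called lower (2) were 4 by limma-voom, 1 under the replicate block, 7 under the label set block and 29 in the libraries with no C number, and 0 to 4 without each library.

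Signs changed by limma-voom for Slc2a1 (0.10), Pfkm (-0.16), Pfkp (0.17) and Mpc2 (-0.11). In the C1 and C2 libraries they changed for Slc2a1 (0.44), Pfkl (0.16), Pfkm (-0.15), Pfkp (0.31), Pfkfb2 (-0.07), Aldoa (0.21), Pgam1 (0.10), Eno2 (0.20) and Mpc2 (-0.05). In those with no C number they changed for Hk1 (0.06), Hk2 (-0.31) and Mpc1 (0.15). They changed under the replicate block for Eno2 (0.01) and Mpc1 (0.03), under the label set block for Mpc1 (0.04), under upper-quartile scaling for Mpc1 (0.01) and with no filter for Pfkm (-0.00). Without each library Slc2a1 ranged from -0.28 to 0.22, Pfkm from -0.18 to 0.11, Pfkp from -0.19 to 0.22, Pfkfb2 from -0.02 to 0.23, Eno2 from -0.21 to 0.02, Mpc1 from -0.11 to 0.06 and Mpc2 from -0.13 to 0.12. The cause of these changes was not tested.

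The difference in share, OB minus control, was 20.7 points for Ldhb and -7.93 for Pdk1 per kilobase, and 12.4 and -16.4 as shares of counts. Without each library the ranges were 18.3 to 22.3 for Ldhb, 23.8 to 31.9 for Pdk4, -8.99 to -6.33 for Pdk1, 3.08 to 7.63 for Hk2, 9.85 to 16.8 for Pfkfb3 and -15.8 to 0.179 for Pfkl, which changed sign without control 3. Slc2a3, at 0 to 3 counts per library, is limited by depth.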

Other observations

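Control 3 differed from control 1 and 2 in the mix of subunit genes as well as in their level. Pfkl made up 55.2% of the level per kilobase of the phosphofructokinase genes in control 3, against 23.2 and 23.9% in the other controls and at most 28.3% among OB libraries. Pfkm, the muscle-type subunit, made up 32.6% there, against 67.0 and 66.5% in the other controls. Hk2 made up 13.9% of the hexokinase pair in control 3 and 9.88 to 16.1% in OB, against 4.76 and 4.83% in control 1 and 2. Control 3 was the lowest of the 7 libraries for 9 of the 35 tested genes, among them Pdk2, Pfkfb3, Mpc1 and Mpc2.

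Txnip, a repressor of glucose uptake, had a control mean of 104 ± 29.2 CPM (SD, n = 3) and an OB mean of 224 ± 68.7 CPM (SD, n = 4), with every OB library above every control, and did not pass (log2 fold change 1.11 ± 0.30, edgeR's adjusted p = 0.0588). It passed with the replicate block (0.00942), the label set block (0.00541), no filter (0.0292) and DESeq2 (0.00506) and without OB 3 (0.0403), and not by limma-voom (0.0582) or without control 3 (0.111). It was singled out after its values were seen.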
